A study of Mus musculus with 8 samples.

Results

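The genes described here are those of the Wnt pathway: its ligands, receptors, antagonists and core intracellular targets, chosen by gene symbol from a table of 34535 transcript isoforms of 24358 genes. The rule took the Wnt, Frizzled, Dickkopf, secreted Frizzled-related and R-spondin families, the receptors of the Lgr, Ror and Lrp5/Lrp6 groups, and a set of single genes such as Ctnnb1, Apc, Axin2 and Lef1. It found 95 isoforms of 66 genes. The cells were adipocyte precursors (APs), mesenchymal cells that can give rise to fat cells, sorted by flow cytometry from the dermis of male C57/Bl6 mice 7 weeks old. One group held 2 samples from the wound bed at day 5 after wounding and the other held 6 samples of nonwounded dorsal skin, with no other treatment or allele in the labels. Each isoform carries a single FPKM per group, a level scaled to transcript length and library size, and a p-value of the authors' Cuffdiff comparison. With no value per sample in that table, SDs, sequencing depth and the count of samples sharing a direction cannot be given. Nothing in the labels ties the samples to separate animals, so the p-values, from Cuffdiff's model of these samples, cannot be read as a spread between animals. All adjusted p-values below were adjusted from the authors' Cuffdiff p-values, since group values alone allow no exact test. The smallest Cuffdiff p, 5e-05, was shared by 1008 isoforms and became 0.000882 on adjustment, so genes at that value are not ranked by it. The surface markers used for the sort are not given in the sources used here.

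Wnt proteins are secreted, lipid-modified signals that bind Frizzled receptors together with co-receptors of the Lrp5/Lrp6 type. In the canonical branch this stabilises beta-catenin, which enters the nucleus and acts with TCF/LEF factors, while other ligands act through Ror receptors and planar polarity proteins without beta-catenin. R-spondins raise the number of Frizzled receptors at the surface, and secreted Frizzled-related proteins and Dickkopf proteins modulate or block signalling outside the cell. In fat tissue canonical Wnt signals such as Wnt10b are known to hold precursors back from adipogenesis, and in skin the pathway is known for its part in hair follicle growth and repair.

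The ligands are the members with the largest differences below, so the sequence before the start of each called ligand gene with an entry in the RefSeq promoter table (build GRCm38.p6) is shown, with that of the receptor gene Ror2. Each line gives the 250 bases before the annotated start, 5′ to 3′ on the gene's own strand, and capitals mark matches to the motifs searched.
Wnt16, chr6:22287977-22288226, plus strand: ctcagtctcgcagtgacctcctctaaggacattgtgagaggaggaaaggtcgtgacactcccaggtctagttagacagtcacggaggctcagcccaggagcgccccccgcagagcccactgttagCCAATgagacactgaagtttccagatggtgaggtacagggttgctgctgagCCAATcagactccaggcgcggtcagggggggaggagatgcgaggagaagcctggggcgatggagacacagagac
Wnt9a, chr11:59306680-59306929, plus strand: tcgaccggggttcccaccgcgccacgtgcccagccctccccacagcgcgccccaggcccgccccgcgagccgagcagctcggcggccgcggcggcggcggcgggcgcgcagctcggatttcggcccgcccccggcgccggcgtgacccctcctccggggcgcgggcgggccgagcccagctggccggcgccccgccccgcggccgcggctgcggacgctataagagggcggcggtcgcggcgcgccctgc
Wnt2, chr6:18030446-18030695, minus strand: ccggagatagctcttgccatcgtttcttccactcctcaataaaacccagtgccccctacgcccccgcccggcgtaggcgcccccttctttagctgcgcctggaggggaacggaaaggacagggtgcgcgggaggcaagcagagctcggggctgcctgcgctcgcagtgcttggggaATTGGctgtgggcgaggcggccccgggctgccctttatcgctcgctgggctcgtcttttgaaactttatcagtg
Wnt10b, chr15:98778151-98778400, minus strand: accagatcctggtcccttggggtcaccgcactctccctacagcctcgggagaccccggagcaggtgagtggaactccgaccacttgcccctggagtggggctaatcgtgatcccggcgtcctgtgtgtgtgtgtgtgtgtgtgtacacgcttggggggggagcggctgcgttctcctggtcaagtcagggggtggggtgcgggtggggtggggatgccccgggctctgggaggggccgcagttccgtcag
Ror2, chr13:53286125-53286374, minus strand: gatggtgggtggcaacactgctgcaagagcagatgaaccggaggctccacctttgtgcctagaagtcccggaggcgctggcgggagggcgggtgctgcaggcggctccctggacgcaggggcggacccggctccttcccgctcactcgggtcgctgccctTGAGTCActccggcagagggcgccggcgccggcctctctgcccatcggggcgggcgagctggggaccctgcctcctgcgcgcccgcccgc
The motifs were the TCF/LEF core CTTTGAT or CTTTGAA, the AP-1 site TGANTCA, the TATA box TATAAA and the CCAAT box CCAAT, on both strands and allowing overlaps. The window of Wnt16 held 2 CCAAT boxes, the first of them starting 125 bases before the start and the other 74. In Wnt2 a single CCAAT box lay on the opposite strand, also starting 74 bases before, and Ror2 held an AP-1 match 90 bases before. No searched letters occurred in the windows of Wnt9a and Wnt10b, or in that of Dkkl1, a called Dickkopf-like gene whose window is not shown. Of the 66 genes, 44 had an entry, in 54 windows. TCF/LEF letters occurred in 3 of these 54 and in 7.48% of all 32851 windows of this length, AP-1 letters in 2 of 54 and 6.75%, TATA letters in 9 of 54 and 12.4%, and CCAAT letters in 14 of 54 and 33.8%. The bases G and C made up a median of 65.8% of the member windows and 52.4% of all windows, and 84.4% of the window of Wnt9a. Such matches describe the letters only.

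Of the 95 isoforms, 53 had been tested by the authors and 42 had not, and none was marked as failed or as holding too many fragments. The tested isoforms belonged to 41 genes. A gene was counted by its major isoform, defined as the tested isoform whose FPKM over the 2 groups added up to most, where that isoform's level was 1 FPKM or more in whichever group was higher. This left 40 genes, and an isoform was called where the Benjamini-Hochberg adjusted p over all 17775 tested isoforms was under 0.05. By this rule 5 of the 40 genes were higher in the wound bed (12.5%, against 7.39% of all 12961 genes counted in the same way) and 6 were lower (15.0%, against 8.70%). The genes called higher were Wnt16, Wnt9a, Ror2, Dkk3 and Lrp5. Those called lower were Wnt5a, Rspo3, Wnt10b, Sfrp4, Wnt2 and Dkkl1. The same 5 and 6 genes hold all called isoforms, against 5.66% and 7.25% of all tested isoforms. At an unadjusted p under 0.05 there were 8 higher and 16 lower genes, or 20.0% and 40.0%, against 13.6% and 18.4% of all genes. The median log2 fold change, wound bed over nonwounded, was -0.22 over the 39 members with values above 0 in both groups and -0.14 over 12458 genes. Fold changes were not centred, and the median of the 12524 isoforms, tested or not, at 1 FPKM or more in each group was itself -0.11. Where a pair of values stands without group names, the wound bed comes first. In bulk RNA of sorted cells, fewer cells of a type and less RNA per cell cannot be told apart.

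**Figure D1:**
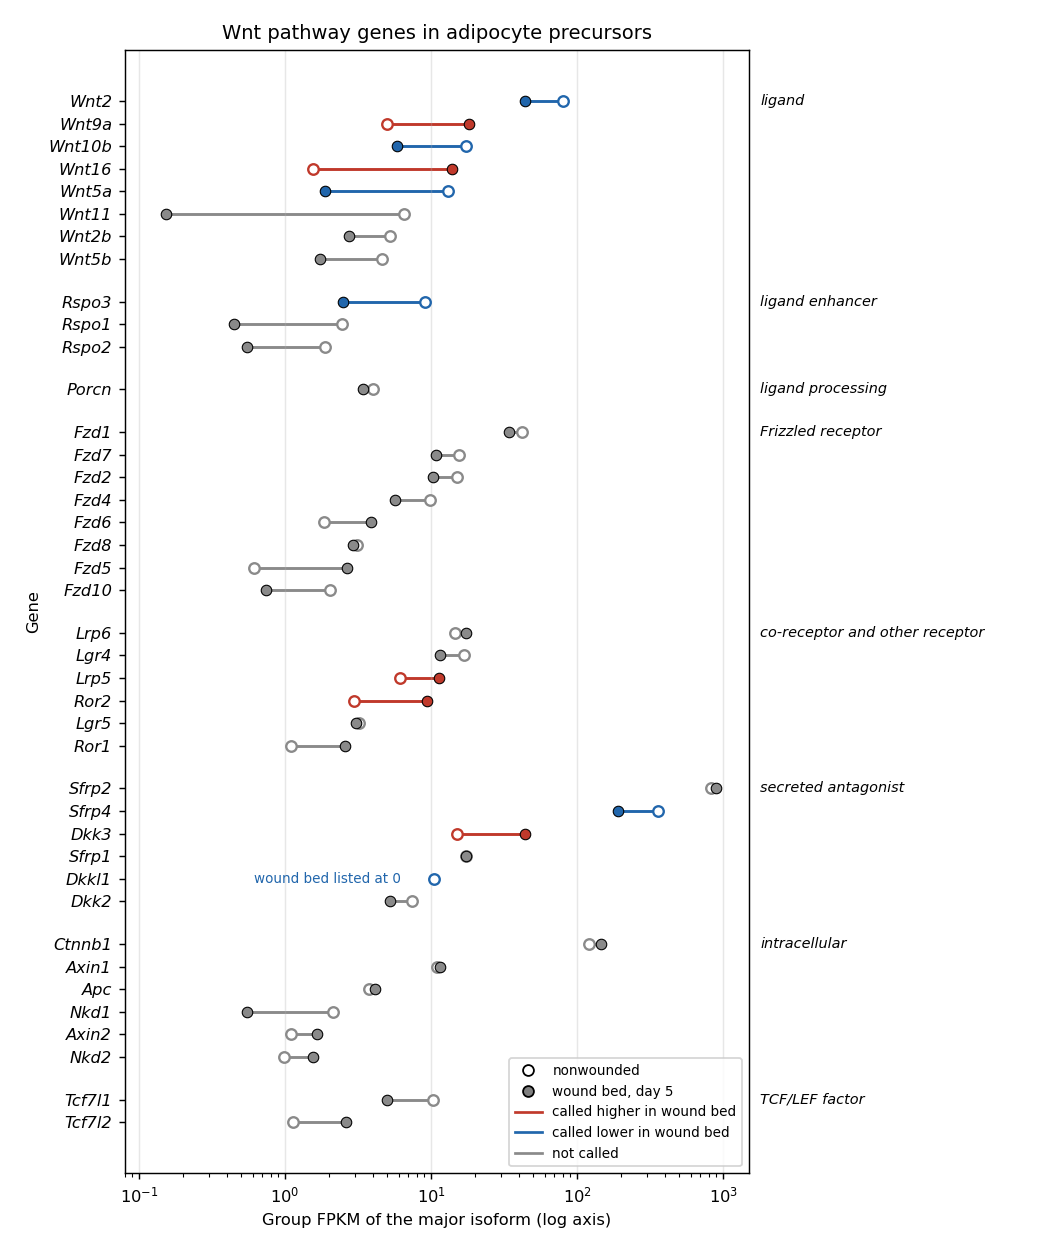
Group FPKM (log axis) of the major isoform of each of the 40 counted genes (rows, ordered by role), open circles for nonwounded and filled circles for the wound bed, joined by a line that is red for a gene called higher, blue for one called lower and grey for the rest. Sfrp2 stands highest (899 and 830), Wnt16 and Wnt9a move to the right in the wound bed, and Wnt5a, Wnt10b, Rspo3 and Sfrp4 move to the left.

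Transcripts that define APs were present in both groups, with Pdgfra at 81.2 in wound bed APs against 78.8 in nonwounded APs and the mesenchymal gene Dcn at 2537 and 2823. Of the 10 AP and dermal mesenchyme markers 2 were called lower and none higher, and the list summed to 6963 and 9012. The genes called lower were Dpp4 (66.7 and 211, a log2 fold change of -1.66) and Cd24a (9.38 and 24.9, or -1.41). By direction alone, 4 of the 10 were higher in the wound bed and 6 lower. Without a call, Ly6a stood at 1539 and 2149, Cd34 at 476 and 739 and Itgb1 at 197 and 117. Markers of other cells differed between the same columns. Of 11 macrophage and monocyte markers 6 were called higher, and their summed FPKM was 976 in wound bed APs against 335 in nonwounded APs. Mature adipocyte markers summed to 8.84 and 136, skeletal muscle markers to 8.55 and 92.3, endothelial markers to 27.0 and 95.4, pericyte and smooth muscle markers to 33.8 and 72.2, and keratinocyte and hair follicle markers to 35.0 and 21.6. The numbers called lower were 2 of 7, 1 of 5, 1 of 6, 1 of 5 and 0 of 6 counted markers, and 2 keratins were called higher. Over all genes 7.39% were called higher and 8.70% lower. By direction alone, 4 of the 6 counted keratinocyte and hair follicle markers were higher and 2 lower. The lower ones were Krt15 (1.24 and 3.73) and Krt17 (1.02 and 1.67), neither called. Most of the endothelial sum was Tek (18.4 and 83.1 over its isoforms), and 3 of the 6 counted endothelial markers were higher and 3 lower. In the pericyte and smooth muscle list Kcnj8 alone stood at 14.9 and 58.3, and 3 counted markers were higher and 2 lower. The defining epithelial genes Cdh1 and Trp63 were not tested, at 0.561 and 0.488 for Cdh1 and 0.493 and 1.14 for Trp63. Schwann cell and melanocyte markers summed to 10.2 and 13.9 with 0 of 4 counted markers called, and Sox10 of that list was not tested at 0 and 0.112. Dermal papilla genes other than Crabp1 (log2 fold change 3.83, called higher) and Bmp6 stood under 1. The part of these cells in the Wnt gene differences was not tested.

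Among the 19 ligand genes, 8 were counted, of which 2 rose (25%), 3 fell (37.5%) and 3 were not called. Over all genes the shares were 7.39% and 8.70%. Wnt16, a ligand known from bone and joint tissue, stood at 14.0 FPKM in wound bed APs against 1.57 in nonwounded APs. This was an 8.95-fold difference, a log2 fold change of 3.16 (adjusted p = 0.0110 by the authors' test). Wnt9a, a ligand known from joint formation, stood at 18.3 and 5.02, a log2 fold change of 1.87 (adjusted p = 0.000882 by the authors' test). Both genes had a single isoform in the table. Wnt16 lies on chromosome 6 from 22288227 to 22298522 and Wnt9a on chromosome 11 from 59306930 to 59333552, in the positions of the table.

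The ligands that fell, Wnt2, Wnt10b and Wnt5a, were the 3 most abundant ones in nonwounded APs. Wnt2, a ligand commonly placed in the canonical branch, had the highest level of all ligands in both groups, with 43.7 FPKM in wound bed APs against 80.8 in nonwounded APs. It fell by 0.89 on the log2 scale (adjusted p = 0.00715 by the authors' test). Wnt10b, the ligand best known for restraining adipogenesis, stood at 5.81 and 17.5, a 3.01-fold lower level in the wound bed (adjusted p = 0.0115 by the authors' test). Wnt5a, a prototype ligand of the beta-catenin-independent branch, stood at 1.89 and 13.1 for its major isoform and fell by 2.79 on the log2 scale (adjusted p = 0.000882 by the authors' test). The positions in the table were chromosome 6 from 17988940 to 18030445 for Wnt2, chromosome 15 from 98771752 to 98778150 for Wnt10b, and chromosome 14 from 28505473 to 28525515 for Wnt5a. In the GENCODE annotation an antisense gene on the opposite strand, Gm2670, overlaps Wnt5a over 3319 bases. Since no source used here says whether strand was used in counting, reads of the 2 genes cannot be told apart.

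Of the 2 Wnt5a isoforms 1 was called. The called isoform, NM_001256224, went from 13.1 in nonwounded APs to 1.89 in wound bed APs. The other, NM_009524, stood at 1.75 and 2.11, a log2 fold change of -0.27 without a call (adjusted p = 0.741 by the authors' test). In the GENCODE annotation of GRCm38 the transcript matched to NM_009524 starts at position 28504750 of chromosome 14, and the one matched to NM_001256224 starts 6655 bases further on, at 28511405. The sum of both isoforms gave a log2 fold change of -2.07. Whether the isoforms differed from each other in their change was not tested.

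The remaining counted ligands were all lower in the wound bed column without a call. Wnt11, a ligand of the beta-catenin-independent branch, stood at 0.153 against 6.48 for its major isoform, a log2 fold change of -5.40, yet with an adjusted p of 0.415 by the authors' test. Its 4 tested isoforms ran from -5.40 to -0.13, none called, and their sum stood at 2.38 against 10.9, or -2.19. The 4 isoforms come from 1 locus and overlap, so the division of reads between them is uncertain. Wnt2b, a close relative of Wnt2, stood at 2.73 and 5.27 (adjusted p = 0.110 by the authors' test), and Wnt5b, a relative of Wnt5a, at 1.73 and 4.63 (adjusted p = 0.168).

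**Figure D2:**
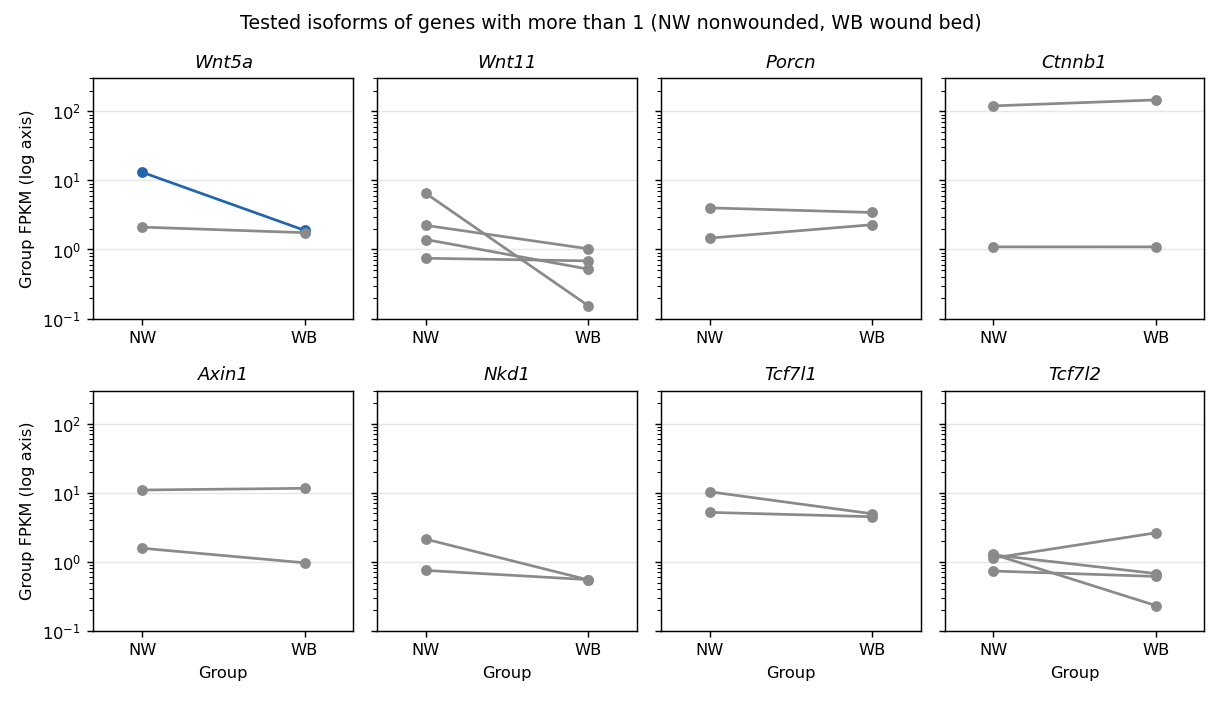
Group FPKM (log axis) in nonwounded APs (NW) and wound bed APs (WB) for each tested isoform of the 8 member genes with more than 1. The values of an isoform are joined by a line that is blue if called lower and grey if not called. Only the major Wnt5a isoform is called, falling from 13.1 to 1.89, and the 4 Wnt11 isoforms are all lower in the wound bed.

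The levels of the ligands relative to each other shifted with these differences. Summed over isoforms and genes, ligand transcripts stood at 92.8 FPKM in wound bed APs against 142 in nonwounded APs. Wnt2 made up 47.1% of this sum in wound bed APs and 56.7% in nonwounded APs. The order below it changed: Wnt10b (12.3%), Wnt5a (10.7%) and Wnt11 (7.62%) followed in nonwounded APs. In wound bed APs Wnt9a (19.7%) and Wnt16 (15.1%) came next after Wnt2, from 3.53% and 1.10%. Wnt10b took 6.25%, Wnt5a 3.92% and Wnt11 2.56% there. These shares come from a single value per group and carry no test.

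**Figure D3:**
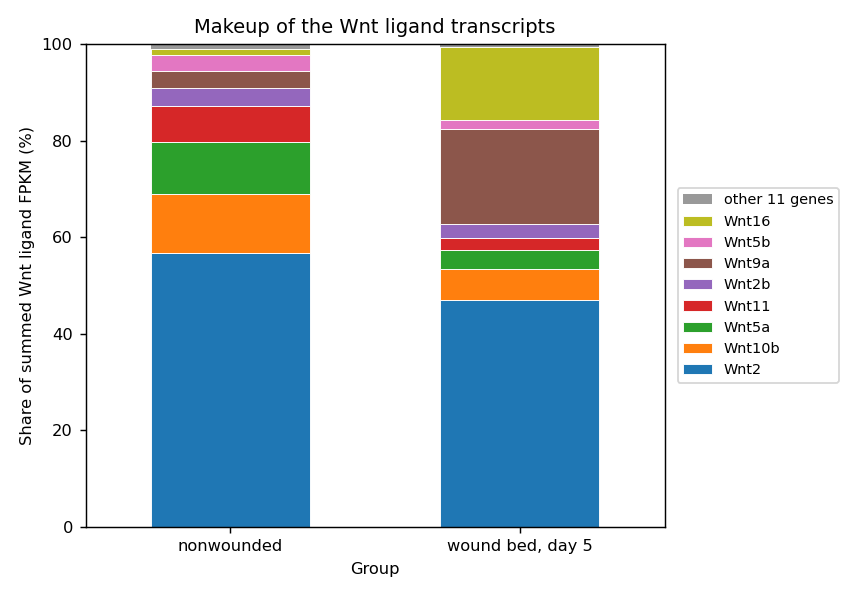
Share of the summed Wnt ligand FPKM (vertical axis, percent) taken by each ligand gene in nonwounded APs and wound bed APs. The 11 genes under an FPKM of 1 in both groups are pooled. Wnt2 is the largest block in both bars, and Wnt9a and Wnt16 together widen from 3.53% and 1.10% to 19.7% and 15.1%.

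The other 11 ligand genes had no tested isoform and summed to an FPKM under 1 in both groups: Wnt1, Wnt3, Wnt3a, Wnt4, Wnt6, Wnt7a, Wnt7b, Wnt8a, Wnt8b, Wnt9b and Wnt10a. Wnt1 had the highest of these sums, 0.162 in wound bed APs against 0.596 in nonwounded APs, and Wnt8a was listed at 0 in both. Several ligand genes lie side by side in the genome, and in each such pair at most one member was detected above an FPKM of 1. Wnt9a lies 16.2 kb from Wnt3a, which stood at 0.0140 and 0.0227, and Wnt10b lies 11.7 kb from Wnt1. Neither gene of the Wnt6 and Wnt10a pair or of the Wnt9b and Wnt3 pair reached 1.

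R-spondins, the ligand enhancers, were lower in the wound bed for each of the 3 counted genes. Rspo3 had the highest level of them and stood at 2.51 FPKM in wound bed APs against 9.03 in nonwounded APs. It fell by 1.85 on the log2 scale, a 3.60-fold difference (adjusted p = 0.00167 by the authors' test). Its locus runs from 29453107 to 29535867 on chromosome 10, where the GENCODE annotation also has an antisense gene, Gm48159, and an unclassified transcript on the same strand, Gm20276, whose reads cannot be told apart here. Rspo1 stood at 0.446 and 2.45 and Rspo2 at 0.549 and 1.89, neither called (adjusted p = 0.163 and 0.119 by the authors' test). Rspo4 had no tested isoform and stood at 0.101 and 0.0482. The family summed to 3.61 in wound bed APs against 13.4 in nonwounded APs. Of the genes that handle the ligand itself, Porcn, the acyltransferase that lipid-modifies Wnt proteins, had a log2 fold change of -0.22 for its major isoform without a call. Notum, a secreted enzyme that removes that lipid, was not tested at 0.0772 and 0.342.

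No Frizzled receptor gene was called among the 8 counted, while 7.39% of all genes were called higher and 8.70% lower. At an unadjusted p under 0.05 by the authors' test, 2 of the 8 were higher and 3 lower. Over all genes the shares at that p were 13.6% and 18.4%. Fzd1 had the highest level, 34.1 FPKM in wound bed APs against 42.2 in nonwounded APs, or 47.5% and 46.3% of the summed Frizzled FPKM. The next genes were Fzd7 (10.7 and 15.4), Fzd2 (10.4 and 15.2) and Fzd4 (5.65 and 9.78), so that the order of the 4 most abundant receptors was the same in both groups. Their log2 fold changes ran from -0.79 for Fzd4 (adjusted p = 0.0717 by the authors' test) to -0.31 for Fzd1 (adjusted p = 0.413). Fzd5 and Fzd6 went the other way, at 2.65 against 0.610 and 3.86 against 1.86. Fzd5, at a log2 fold change of 2.12, was the gene nearest to the threshold without passing it (adjusted p = 0.0528 by the authors' test), while Lrp5 was the nearest that passed (0.0223). Fzd8 stood at 2.92 and 3.13, and Fzd10 at 0.736 and 2.03. Fzd3 and Fzd9 were not tested and lay under an FPKM of 1 in both groups.

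Co-receptors and alternative receptors were called higher for 2 of 6 counted genes (33.3%, against 7.39% of all genes) and lower for none. Ror2, a receptor tyrosine kinase that binds Wnt5a, stood at 9.44 FPKM in wound bed APs against 2.98 in nonwounded APs, a log2 fold change of 1.67 (adjusted p = 0.00239 by the authors' test). Its ligand gene Wnt5a fell in the same comparison, as given above. Ror1, the related receptor, stood at 2.58 and 1.10 without a call (adjusted p = 0.176 by the authors' test). Lrp5 rose by 0.89 on the log2 scale, from 6.15 to 11.4 (adjusted p = 0.0223 by the authors' test), and Lrp6, the other canonical co-receptor, stood at 17.4 and 14.6 without a call (adjusted p = 0.487). Lgr4, a receptor for R-spondins, stood at 11.4 and 16.8 (adjusted p = 0.135 by the authors' test) and Lgr5, of the same family, at 3.05 and 3.21. Lgr6 and the receptor-removing ubiquitin ligase genes Rnf43 and Znrf3 had no tested isoform, with sums of at most 0.664. The loci of the called genes are chromosome 13 from 53109317 to 53286109 for Ror2 and chromosome 19 from 3584825 to 3686564 for Lrp5.

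**Figure D4:**
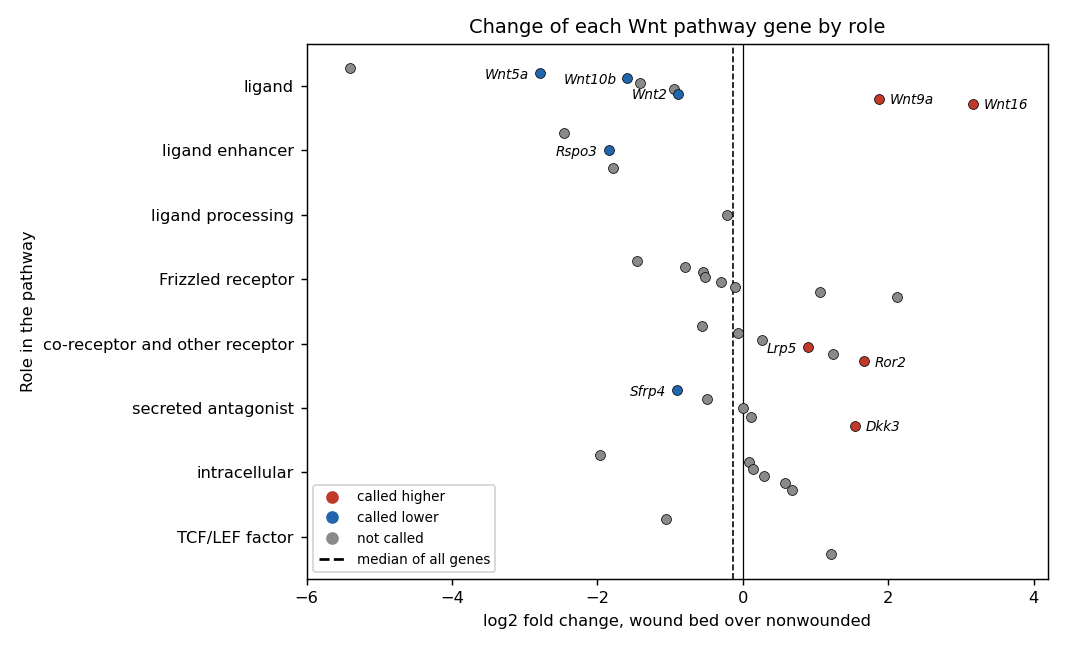
Horizontal axis, log2 ratio of the wound bed to the nonwounded FPKM of each counted member by role (rows), red for a gene called higher, blue for one called lower and grey for the rest, with a dashed line at the median of all genes (-0.14). Ligands spread from -5.40 for Wnt11 to 3.16 for Wnt16, all 3 R-spondins lie left of 0, and no Frizzled receptor is called. Dkkl1, listed at 0 in the wound bed, is not drawn.

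Transcripts of the secreted antagonists were far more abundant than those of the ligands, with a summed FPKM of 1156 in wound bed APs against 1239 in nonwounded APs. Sfrp2, a secreted Frizzled-related protein gene strongly expressed in dermal fibroblasts, made up 77.7% and 67.0% of these sums. It stood at 899 and 830 and was not called (adjusted p = 0.840 by the authors' test). Sfrp4, of the same family, stood at 191 in wound bed APs against 358 in nonwounded APs and fell by 0.91 on the log2 scale (adjusted p = 0.0106 by the authors' test). Sfrp1 stood at 17.4 and 17.3, a log2 fold change of 0.00. Thus 1 of the 3 counted family members fell, and the family sum was 1107 against 1205.

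In the Dickkopf group Dkk3, a divergent member whose action on Wnt signals differs between cell types, rose from an FPKM of 15.1 to 43.9. This is a log2 fold change of 1.54 (adjusted p = 0.000882 by the authors' test). Dkk2 stood at 5.26 and 7.42 without a call (adjusted p = 0.265 by the authors' test). Dkkl1, a Dickkopf-like gene best known from the testis, stood at 10.4 in nonwounded APs and was listed at 0 in wound bed APs. It was called lower (adjusted p = 0.000882 by the authors' test). An exact 0 can be a failed estimate, so no fold change is given for Dkkl1. Wif1, a secreted Wnt inhibitor, was tested at 0.223 and 0.774 without a call and lay under the FPKM minimum. Dkk1, Dkk4, Frzb, Sfrp5 and Sost were not tested, the highest value among them being 0.166 for Frzb in nonwounded APs. The table places Sfrp4 on chromosome 13 from 19623175 to 19632823, Dkk3 on chromosome 7 from 112116019 to 112159057 and Dkkl1 on the same chromosome from 45207525 to 45211883.

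None of the 6 counted intracellular members was called, while 7.39% of all genes were called higher and 8.70% lower. Ctnnb1, which encodes beta-catenin, stood at 146 FPKM in wound bed APs against 120 in nonwounded APs for its major isoform (adjusted p = 0.480 by the authors' test). Of the destruction complex, Axin1 stood at 11.6 and 10.9 and Apc at 4.13 and 3.76. The feedback target Axin2, whose transcript is widely used as a readout of canonical signalling, stood at 1.65 and 1.10, a log2 fold change of 0.58 (adjusted p = 0.493 by the authors' test). The naked cuticle genes, which encode inhibitors acting on Dishevelled, stood at 0.546 and 2.12 for Nkd1 (adjusted p = 0.0850 by the authors' test) and 1.56 and 0.984 for Nkd2 (adjusted p = 0.481).

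Of the TCF/LEF factors, Tcf7l1, known mainly as a repressor, was the most abundant. Its major isoform stood at 4.96 and 10.3 (adjusted p = 0.0699 by the authors' test), its other isoform at 4.49 and 5.19. The major isoform of Tcf7l2 stood at 2.62 and 1.13 with a log2 fold change of 1.21 (adjusted p = 0.223 by the authors' test), but the sum of its 8 isoforms gave -0.04. Lef1 and Tcf7 had no tested isoform. Lef1 summed to 0.0388 in wound bed APs against 0.355 in nonwounded APs, and Tcf7 stood at 0.409 and 0.346.

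Genes of the pathway outside this rule were read from 5 lists. Of 117 listed symbols 114 were in the table and 102 were counted, with 21 called higher (20.6%) and 5 lower (4.90%), against the 7.39% and 8.70% of all genes given above. Their median log2 fold change was 0.20. Outside the cell, in the list of ligand secretion and extracellular handling, 5 of 13 genes rose (38.5%) and 2 fell (15.4%). Gpc1, a glypican that binds Wnt proteins, rose from an FPKM of 1.24 to 29.6, and Sdc1, a syndecan, from 4.01 to 39.2 (adjusted p = 0.000882 each, from the authors' test). Sulf1 rose by 1.55 and its paralog Sulf2 by 1.14 on the log2 scale, both enzymes that trim heparan sulfate, and Trabd2b, a protease gene acting on Wnt ligands, by 1.88. By the authors' test the adjusted p was 0.0147 for Sulf1, 0.00368 for Sulf2 and 0.0290 for Trabd2b. In contrast Gpc3, another glypican, fell from 898 to 217, and Apcdd1, a membrane-bound Wnt inhibitor gene, from 34.7 to 8.26 (adjusted p = 0.000882 each, from the authors' test). Igfbp4, a growth factor binding protein gene, and Gpc6, a glypican gene, had log2 fold changes of -0.08 and -0.15 without a call, and the first of these became 0.03 on centring. Wls, the carrier that brings Wnt proteins to the surface, stood at 106 in wound bed APs against 75.9 in nonwounded APs without a call (adjusted p = 0.206 by the authors' test).

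Among the genes often reported as transcriptional targets, 6 of 19 rose (31.6%, against 7.39% of all genes) and 1 fell (5.26%, against 8.70%). Wisp1, a matricellular gene, stood at 21.2 FPKM in wound bed APs against 0.916 in nonwounded APs, Cd44, a hyaluronan receptor gene, at 104 and 6.92, Myc, a growth-promoting transcription factor gene, at 80.9 and 10.9 and Nfatc1, a calcium-regulated transcription factor gene, at 9.27 and 0.772. The log2 fold change of Nfatc1 was 3.59, or 2.96 over its summed isoforms. Wisp2 and Prickle1 rose by 1.64 and 1.51 on the log2 scale. Dact2, a Dishevelled antagonist gene, fell by 3.22 (adjusted p = 0.0115 by the authors' test). Ccnd1, the cyclin D1 gene, stood at 3.34 and 5.83 without a call (adjusted p = 0.103 by the authors' test), and Sp5 was not tested. Jun, an AP-1 gene, Twist1 and Id2 had the highest major isoform FPKM, added over both groups, of the uncalled genes of the list, with log2 fold changes of 0.65, 0.09 and -0.73. Several of these genes are also known to respond to inflammatory and growth factor signals. Cd44 and Myc are also expressed by macrophages, whose markers summed to 976 and 335, and the part of such cells in these values was not tested.

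In the cytoplasmic relay and destruction complex list 3 of 26 genes rose (11.5%) and none fell. Of all genes 7.39% were called higher and 8.70% lower. These were Dact3 (log2 fold change 1.56), which encodes a Dishevelled-binding protein, Tnks (1.09), a tankyrase gene whose product destabilises axin, and Csnk1a1 (0.98), the kinase gene that starts beta-catenin phosphorylation. The abundant phosphatase and kinase genes Ppp2r1a (-0.24), Ppp2r5a (0.27) and Csnk1d (0.11) were not called. Among nuclear partners and corepressors 3 of 19 rose (15.8%) and none fell. Those that rose were the coactivator gene Crebbp (1.44), the corepressor gene Ctbp2 (1.19) and Tbl1x (0.85). Aes (-0.61), Ctbp1 (1.33, or 0.09 over its summed isoforms) and Pygo2 (0.14, or -0.34 over its summed isoforms) were not called. By the authors' test the adjusted p was 0.0106 for Dact3, 0.0102 for Ctbp2 and 0.0328 for Tbl1x, and under 0.01 for Tnks, Csnk1a1 and Crebbp. In the beta-catenin-independent list 4 of 25 rose (16%) and 2 fell (8%), the latter near the 8.70% of all genes. Ptk7, a polarity co-receptor gene, stood at 8.23 and 1.61 FPKM (log2 fold change 2.36). Prickle3 rose by 1.49, the calcineurin gene Ppp3ca by 1.25 (0.85 over its summed isoforms) and the kinase gene Rock1 by 1.02. Vangl1, a core polarity gene, fell by 1.05. The major isoform of Daam1, a formin gene, fell by 2.07, while the sum of its isoforms gave 0.0126. The adjusted p by the authors' test was 0.0211 for Ppp3ca and 0.0110 for Vangl1, and under 0.01 for the other called genes of this list. The abundant GTPase genes Rhoa (-0.53) and Rac1 (-0.31) and the Wnt receptor gene Ryk (0.11) were not called.

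**Figure D5:**
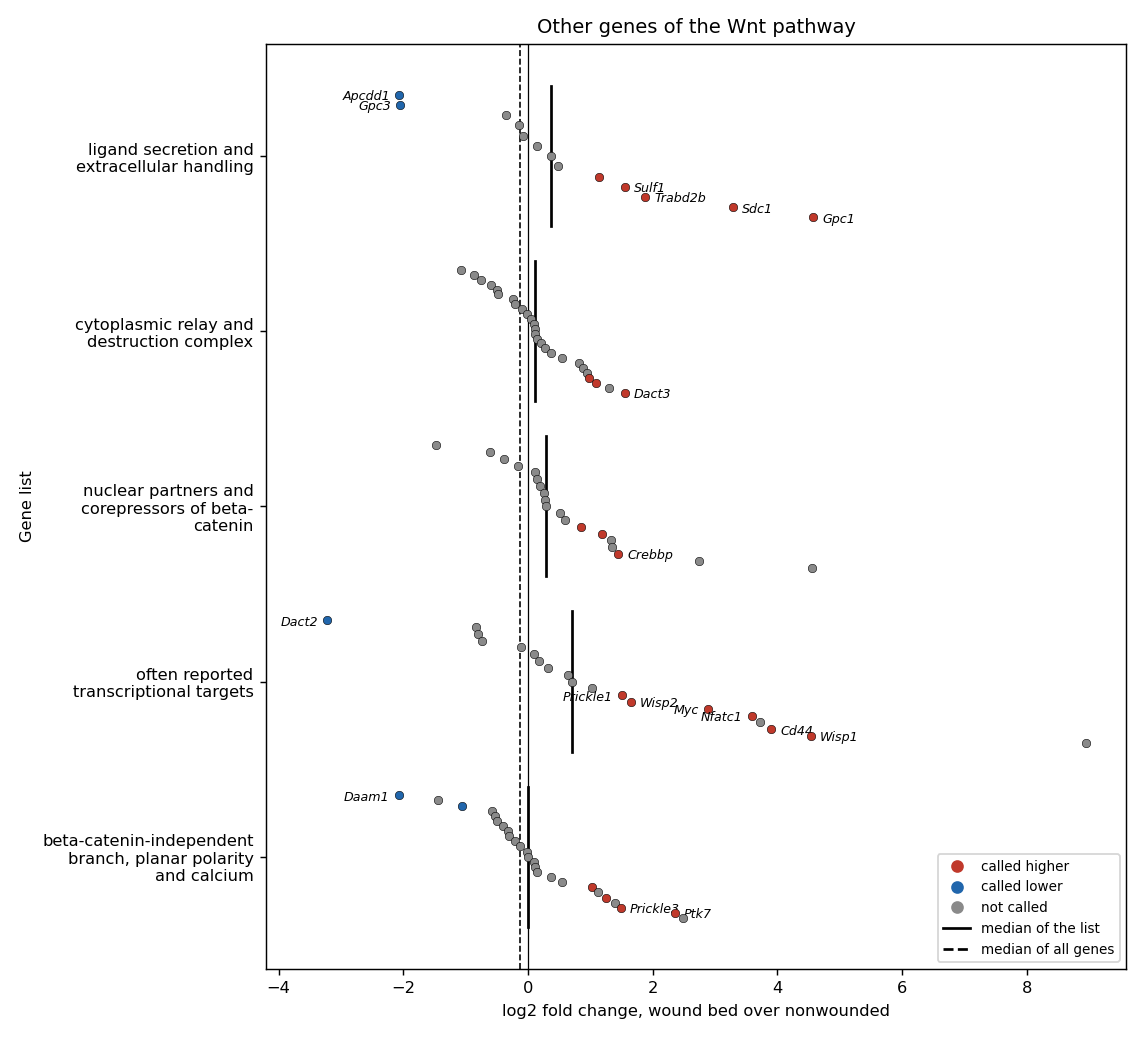
Horizontal axis, log2 ratio of the wound bed to the nonwounded FPKM of each counted gene in the 5 further lists (rows), drawn as points that are red for genes called higher, blue for those called lower and grey otherwise, with a bar at the median of each list and a dashed line at the median of all genes (-0.14). The medians run from 0.00 for the beta-catenin-independent list to 0.70 for the often reported targets.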

How the data were processed

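RNA of sorted dermal adipocyte precursors went into mRNA libraries (Illumina TruSeq), as the labels' protocols state. Reads were aligned with TopHat2 2.0.2 and groups compared with Cuffdiff 2.0.2, per the submitters' processing notes, which name mm9 as build. The authors deposited 1 FPKM per isoform and group, pooled over 2 wound bed and 6 nonwounded samples, and the authors' deposited p-value of the comparison. No count test or test across samples could be run. The number of per-sample columns not used was 0.

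Adjustment of the deposited p-values (Benjamini-Hochberg, 17775 tested isoforms) gave the same call as the deposited column for all 34535 isoforms, and the adjustment was tested on simulated data. Log2 fold changes are wound bed over nonwounded, without a pseudocount. Date-like symbols in 56 isoforms were restored through the RefSeq gene table. Starts count from 1. Although mm9 is named, 62 of 66 member loci began or finished within 100 bases of the same gene in GRCm38.p6. The printed loci of these 62 genes thus match GRCm38 positions, and mm9 positions were not compared.

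The members, lists and tests were chosen with earlier results of these data known. Genes named with values were members with a called isoform or a major isoform at an FPKM of at least 5, and of each further list up to 4 called genes per direction and 3 uncalled. Other members and list genes given with values (such as Axin2, Fzd5, Rspo1, Sulf2, Wisp2, Prickle1 and Ccnd1) were chosen after their values were seen. Promoter windows came from RefSeq and motifs were chosen afterwards. Computations used Python 3.11.15, numpy 2.4.6, pandas 2.3.3 and matplotlib 3.10.9.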

Additional observations from a re-analysis of the deposited data

How the results depend on the processing

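Of the choices tried, the p threshold moved most counts furthest. For the Wnt genes called lower, a minimum log2 fold change of 1 did as much. At an adjusted p under 0.01 the Wnt genes called higher went from 5 to 3, as did their isoforms called higher, and those called lower from 6 to 4. The other pathway genes called higher went from 21 to 15 and those called lower from 5 to 3. Of the members Lrp5, Sfrp4, Wnt10b and Wnt16 lost their call there, as did 8 of the other pathway genes named: Trabd2b, Sulf1, Dact3, Ctbp2, Tbl1x, Dact2, Ppp3ca and Vangl1. At 0.1 Fzd4, Fzd5, Nkd1, Tcf7l1 and Id2 gained one. A minimum log2 fold change of 1, other FPKM minimums, adjustment over isoforms with an FPKM of at least 1, counting any tested isoform and leaving out isoforms listed at 0 kept every count within 1.5 times. With the minimum log2 fold change of 1 the Wnt genes called lower went from 6 to 4, without Wnt2 and Sfrp4. Those called higher went from 5 to 4, without Lrp5. The median log2 fold change of the Wnt genes, -0.22, became -0.26 and -0.24 with pseudocounts of 0.1 and 1, -0.11 after centring on the median of expressed isoforms, -0.13 with isoform sums, -0.26 without an FPKM minimum and -0.51 with a minimum of 5. Among called genes 1 changed sign, Daam1, from -2.07 to 0.0126 with isoform sums. Uncalled members that changed sign were Fzd8 and Lgr5 on centring (to 0.0065 and 0.036) and Tcf7l2 with isoform sums (-0.04). No paired analysis was possible because the table holds 1 value per group, and leaving out each replicate in turn was not run for the same reason. Depth is unknown, so low values carry no interval.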

Other observations

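Untested isoforms with values above 0 in both groups were more often lower than higher in the wound bed, in the Wnt genes and in the table as a whole. The highest FPKM among them was 0.716 for the Wnt genes, while untested isoforms of the whole table reached 977. Of 42 untested Wnt isoforms 34 had values above 0 in both groups, and 26 of these (76.5%) were lower in the wound bed. Over all untested isoforms of the table with values above 0 in both groups the share was 63.2% of 7832. A further 6 Wnt isoforms had a 0 for wound bed APs alone and 0 had one for nonwounded APs alone. Over all untested isoforms the numbers were 4590 and 289. The wound bed values pool 2 samples and the nonwounded values 6. The values of Lef1, Wnt1 and Notum given above belong to these untested isoforms.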
